A study of Mus musculus with 14 samples.

Results

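The guanylate-binding protein genes examined here were the 9 members *Gbp2*, *Gbp3*, *Gbp4*, *Gbp6*, *Gbp7*, *Gbp8*, *Gbp9*, *Gbp10* and *Gbp11*, found by gene name among the 55487 genes of the deposited count table. They were followed in the liver of 14 TALLYHO mice, an inbred strain in which males develop polygenic type 2 diabetes, so that every mouse in both groups carried the same diabetes-prone background. The mice were male and 8–12 weeks old, per the methods of the study, and the right liver lobe was taken for bulk sequencing of strand-specific polyadenylated RNA. The vehicle group (7 mice: G1, G4, G6, G9, G10, G11 and G13) received water by oral gavage. The indole group (7 mice: G2, G3, G5, G7, G8, G12 and G14) received 20 mg/kg indole by oral gavage, with 2 doses daily for 7 days and further doses between metabolic tests. The comparison asked how sub-chronic indole, a bacterial product of tryptophan, altered liver transcripts in diabetic mice. No untreated or non-diabetic TALLYHO group was included.

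The genes were selected on values measured in these same livers. In earlier results from these counts, indole-treated mouse G8 had the highest levels of interferon-induced genes of the 14 mice, and the fold change of *Gbp10* changed sign between tests. The level in G8 and the difference between indole and vehicle are therefore given below as a description. Outside the closing section, counts of genes past a *p* threshold in fits across all genes are printed with the share of all genes that passed it. No test of these genes rests on them.

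Guanylate-binding proteins are large GTPases that cells make in response to interferon, above all interferon gamma, with IRF1 among the factors that act on their genes. They assemble on the membranes of intracellular bacteria and parasites and on the vacuoles that hold them, help to break these open, and promote inflammasome activation by released bacterial products. In mice the genes lie in 2 clusters, on chromosomes 3 and 5. In liver they can be made by hepatocytes as well as by Kupffer cells and other immune cells, and in bulk RNA more cells of a type and more RNA per cell cannot be told apart.

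In the deposited annotation (GRCm38), *Gbp7* (chr3:142530342-142550149), *Gbp3* (chr3:142560026-142573209) and *Gbp2* (chr3:142620602-142638008) lay on the plus strand of chromosome 3. The other 6 genes lay on the minus strand of chromosome 5. *Gbp8* (chr5:105014150-105139540), *Gbp9* (chr5:105077630-105139539) and *Gbp4* (chr5:105115767-105139586) overlapped at their shared 5′ end, followed by *Gbp10* (chr5:105215699-105239533), *Gbp6* (chr5:105270702-105293698) and *Gbp11* (chr5:105323042-105346472). *Gbp11* was annotated as a polymorphic pseudogene and the other 8 as protein coding. The relatives *Gbp2b* and *Gbp5*, both on chromosome 3, were not among the 9 genes and are used only for comparison.

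The promoters of the chromosome 3 genes are shown because interferon acts on genes of this family through short elements near their start sites. The interferon-stimulated response element (ISRE) is bound by interferon regulatory factors, and the gamma-activated site (GAS) is an element of genes that respond to interferon gamma. RefSeq promoters (GRCm38.p6, from 250 bases before to 50 bases after each start site) were read for *Gbp2*, *Gbp3*, *Gbp7* and both relatives. Both strands were searched for the ISRE core GAAANNGAAA and the GAS TTCNNNGAA, which can overlap each other or themselves, and each match that falls in the stretches shown is in capitals below. All ISRE matches lay on the minus strand and so appear as their reverse complement on the plus strand shown.
Gbp7, chr3:142530220-142530302 (+): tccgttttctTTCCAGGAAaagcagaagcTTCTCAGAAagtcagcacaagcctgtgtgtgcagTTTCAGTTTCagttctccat
Gbp3, chr3:142559989-142560024 (+): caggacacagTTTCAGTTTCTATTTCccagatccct
Gbp2, chr3:142620594-142620623 (+): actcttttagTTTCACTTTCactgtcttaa
Gbp2b, chr3:142594700-142594729 (+): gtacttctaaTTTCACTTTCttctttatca
Gbp5, chr3:142496759-142496788 (+): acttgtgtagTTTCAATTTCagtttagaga

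*Gbp7* held 1 ISRE core 53 to 44 bases before its start site and GAS matches 106 to 98 and 87 to 79 bases before it. *Gbp3* held 2 overlapping ISRE cores, 45 to 36 and 39 to 30 bases before its start, while the window of its other start site held no match. The relative *Gbp5* held, outside the stretch shown, GAS matches 245 to 237 and 52 to 44 bases before its start. *Gbp2* held 1 ISRE core 59 to 50 bases before its RefSeq start, where 22 of the 30 bases shown lie in an annotated exon of the gene that begins further upstream. Of 32851 mouse promoters of the same length, 3.443% held the ISRE core, 8.298% the GAS and 0.4536% both. The TATA box letters TATAAA were found on either strand in 13.62% of all promoters. Among the 3 genes they were found in *Gbp3*, 207 to 202 bases before its start, on the minus strand and so against the direction of the gene. These matches describe letters in the sequence and not occupied sites.

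The total count per mouse ranged from 15197498 (G8) to 21060376 (G13), and the 9 genes together took 27662 reads. Levels are given in CPM, the count of a gene scaled to the library total after trimmed mean of M values (TMM) normalisation, with 3 reads as the floor of detection, or 0.142 to 0.203 CPM depending on the mouse. Of the 9 genes, 8 passed the expression filter of edgeR with 12653 genes in all, and *Gbp6* (103 reads) did not. The liver label held in the marker genes, with 47405 CPM of albumin (*Alb*) in the lowest mouse.

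*Gbp11* dominated the family, with 69.2% of its reads. Set against gene length, the median *Gbp11* level in vehicle-treated mice was 26.8 CPM per kb (range 18.4–47.4), and the next gene, *Gbp2*, had 2.85 CPM per kb (range 1.03–6.61). *Gbp11* was thus above *Gbp2* in 7 of 7 vehicle-treated mice without overlap. Then came *Gbp7* at 1.61, *Gbp10* at 1.25, *Gbp3* at 0.747, *Gbp8* at 0.482, *Gbp9* at 0.340, *Gbp4* at 0.114 and *Gbp6* at 0.0519 CPM per kb. From *Gbp2* downwards the ranges of neighbours overlapped, and *Gbp8* was above *Gbp9* in only 2 of 7 vehicle-treated mice although its median was higher.

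In the other 6 indole-treated mice the order of the median levels per kb was the same at the top (*Gbp11*, *Gbp2*, *Gbp7*, though *Gbp2* was above *Gbp7* in only 3 of 6 mice) and at the bottom (*Gbp9*, *Gbp4*, *Gbp6*). *Gbp10* took the sixth place instead of the fourth, with a median of 0.359 CPM per kb (range 0.175–0.995). In G8 it was the second, at 11.7 CPM per kb, above *Gbp2* at 9.65, *Gbp3* at 8.47 and *Gbp7* at 5.05. *Gbp11* remained the highest in G8, at 80.5 CPM per kb.

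**Figure D1:**
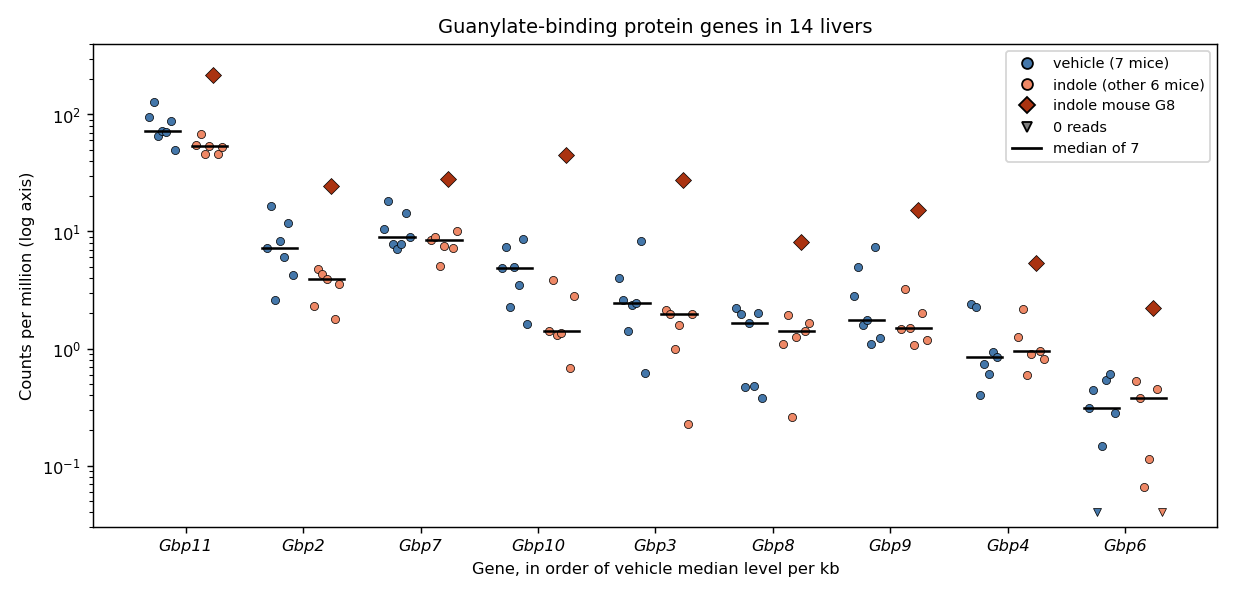
CPM of each gene (log axis) in 7 vehicle-treated mice (blue) and 7 indole-treated mice (orange, with G8 as a red diamond), with lines at the medians of 7 and triangles for mice with 0 reads. The G8 diamond is the highest point for all 9 genes, from 2.22 CPM for *Gbp6* to 217 CPM for *Gbp11*.

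Summed over the 9 genes, vehicle-treated mice ranged from 67.7 to 182 CPM with a median of 99.0 CPM. The 6 indole-treated mice other than G8 ranged from 59.98 to 95.3 CPM with a median of 72.4 CPM, and G8 had 373 CPM. G8 was thus 5.16-fold above the median of its group mates, and 8.62-fold above it (157 against 18.2 CPM) when *Gbp11* was left out. Leaving G8 aside, the groups overlapped, with every indole-treated mouse below the vehicle median. G8 ranked highest of the 14 mice for each of the 9 genes, whereas it ranked highest for 9.18% of the 12653 genes tested. It was at least 2-fold above the next mouse for 6 of the 9 genes, or 5 of the 8 that passed the filter, against 0.601% of genes tested. These are values of the kind that chose the family, and nothing further is read from them.

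On chromosome 3, *Gbp2* encodes a prenylated protein that coats bacterial and parasite vacuoles. Its level ranged from 2.60 to 16.6 CPM in vehicle-treated mice (median 7.16) and from 1.80 to 4.76 CPM in the 6 indole-treated mice other than G8 (median 3.74). G8 had 24.3 CPM from 361 reads. In words, G4 was the highest vehicle-treated mouse and G6 the lowest, all 6 of these indole-treated mice lay below the vehicle median, and 5 vehicle-treated mice lay above all 6 of them.

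*Gbp3*, a neighbour of *Gbp2* on chromosome 3, varied more. Vehicle-treated mice had 0.616 to 8.36 CPM (median 2.44), the other 6 indole-treated mice 0.226 to 2.15 CPM (median 1.78), and G8 27.7 CPM from 411 reads. G11 was the only vehicle-treated mouse above 4 CPM, and G8 was 3.31-fold above G11. The lowest mouse, G12, had 4 reads, so the lower end of this range is close to the floor.

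*Gbp7* encodes a protein known for its part in assembly of the phagocyte NADPH oxidase. It was the steadiest of the 3, at 7.03 to 18.1 CPM in vehicle-treated mice (median 9.04) and 5.11 to 10.02 CPM among the other 6 indole-treated mice (median 7.97). G8 had 28.3 CPM, or 1.57-fold more than the next mouse, G4. The groups overlapped apart from G8, and 3 vehicle-treated mice lay above all 6 other indole-treated mice.

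On chromosome 5, *Gbp10* had the widest gap between G8 and the rest. Vehicle-treated mice had 1.61 to 8.58 CPM (median 4.84), the other 6 indole-treated mice 0.677 to 3.85 CPM (median 1.39), and G8 45.4 CPM from 675 reads. G8 was 32.7-fold above the median of its group mates and 5.29-fold above the next mouse, the vehicle-treated G11. Of the other 6 indole-treated mice, 4 (G2, G5, G7 and G12) lay below every vehicle-treated mouse. The mean of *Gbp10* was 4.74±2.55 CPM in vehicle-treated mice (SD, *n*=7) and 8.12±16.5 CPM in indole-treated mice (SD, *n*=7), and the latter became 1.90±1.18 CPM (SD, *n*=6) without G8.

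The abundant *Gbp11* had 49.4 to 128 CPM in vehicle-treated mice (median 72.1) and 45.7 to 68.0 CPM among the other 6 indole-treated mice (median 53.5). G8 had 217 CPM from 3220 reads, 1.70-fold above G4. Every indole-treated mouse but G8 was below the vehicle median, and 5 vehicle-treated mice were above all 6. With at least 700 reads in each mouse, counting error was small for *Gbp11* against the spread between mice.

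*Gbp9* had 1.08 to 7.31 CPM in vehicle-treated mice (median 1.76), 1.08 to 3.21 CPM among the other 6 indole-treated mice (median 1.49) and 15.3 CPM in G8. As for *Gbp3* and *Gbp10*, G11 was the highest vehicle-treated mouse. The groups without G8 overlapped, though 2 vehicle-treated mice, G11 and G4 (4.94 CPM), lay above all 6 other indole-treated mice.

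*Gbp8* had 0.379 to 2.22 CPM in vehicle-treated mice (median 1.66), 0.262 to 1.93 CPM among the other 6 indole-treated mice (median 1.33) and 8.14 CPM in G8. *Gbp4* had 0.40 to 2.42 CPM in vehicle-treated mice (median 0.852), 0.589 to 2.19 CPM among the other 6 indole-treated mice (median 0.932) and 5.38 CPM in G8. *Gbp4* was the exception among the 9 genes, in that the median of the 6 indole-treated mice was not below the vehicle median. G1 was the highest vehicle-treated mouse for both. Without G8 the groups overlapped for both genes, though 3 vehicle-treated mice for *Gbp8* and 2 for *Gbp4* lay above all 6 other indole-treated mice.

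*Gbp6* was scarcely detected. It had 0 to 0.609 CPM in vehicle-treated mice (median 0.309), 0 to 0.525 CPM among the other 6 indole-treated mice (median 0.244) and 2.22 CPM in G8, from 33 of its 103 reads. G6 and G14 had no read of *Gbp6*, which at these totals allows up to 0.2001 and 0.176 CPM.

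The relatives held the same mouse at the top. *Gbp2b* had 11.8 CPM in G8, from 176 of 290 reads in all, and 0.0655 to 1.54 CPM in the other 13 mice. *Gbp5*, whose product promotes NLRP3 inflammasome assembly, had 4.71 CPM in G8 and at most 3.0 CPM elsewhere, with the indole-treated mouse G3 next highest.

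**Figure D2:**
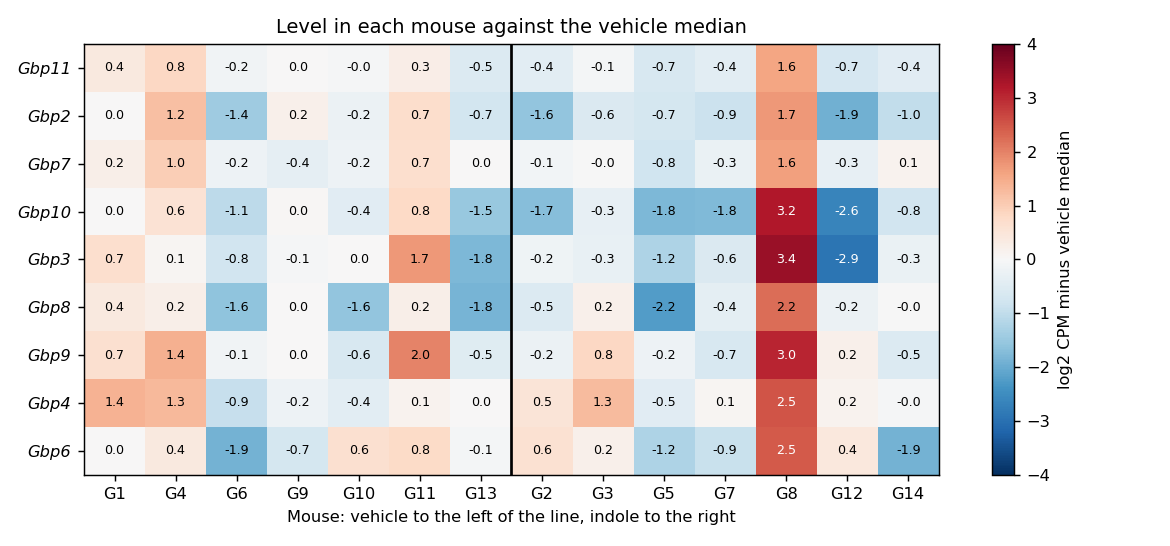
Log2 CPM (prior count 2) of each gene in each mouse minus the median of the 7 vehicle-treated mice, with vehicle-treated mice left of the line and indole-treated mice right of it. G8 is red for all 9 genes, the reddest vehicle values are in G1, G4 and G11, and *Gbp10* and *Gbp3* reach the lowest values in G12.

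Among vehicle-treated mice the family also varied widely. The highest was G11 for 4 of the 9 genes (*Gbp3*, *Gbp6*, *Gbp9* and *Gbp10*), G4 for 3 (*Gbp2*, *Gbp7* and *Gbp11*) and G1 for 2 (*Gbp4* and *Gbp8*). G11 was the highest vehicle-treated mouse for 3 of the 8 genes that passed the filter, and for 13.4% of all genes tested. The mouse next below G8 was a vehicle-treated mouse for all 9 genes, where 7 of the 13 other mice were vehicle-treated. The share over all genes was not computed and the 9 genes vary together, so nothing is read from this count. Averaged over the 9 genes, the rank among 14 mice (1 is the highest) was 1 for G8, 3.11 for G11, 3.22 for G4 and 4.11 for G1, and the lowest mouse was G5 at 12.

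The SD of log2 CPM among the 7 vehicle-treated mice was 0.436 for *Gbp11* and 0.503 for *Gbp7*, larger than for 83.6% and 88.4% of all genes tested. For the other 6 genes that passed the filter it was 0.846 (*Gbp10*) to 1.10 (*Gbp3*), larger than for at least 98.1% of genes. Genes with few reads vary more through counting alone, and *Gbp4* and *Gbp8* are among those.

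The composition of the family differed between G8 and the other mice. *Gbp11* made up a median of 80.0% of the summed CPM per kb in vehicle-treated mice (range 69.4–85.9%) and 82.0% in the other 6 indole-treated mice (range 78.6–83.9%), against 66.1% in G8. *Gbp10* made up 2.85% in vehicle-treated mice (range 1.82–4.75%), 1.56% in the other 6 indole-treated mice (range 0.864–3.12%) and 9.63% in G8. *Gbp3* made up 2.09%, 1.94% and 6.95%, in the same order. The shares of *Gbp10* and *Gbp3* in G8 were outside the range of the other 13 mice, whereas those of *Gbp2* (7.93%) and *Gbp7* (4.14%) were inside it. The nearest mouse to G8 was the vehicle-treated G11, in which *Gbp11* had its lowest other share, 69.4%.

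**Figure D3:**
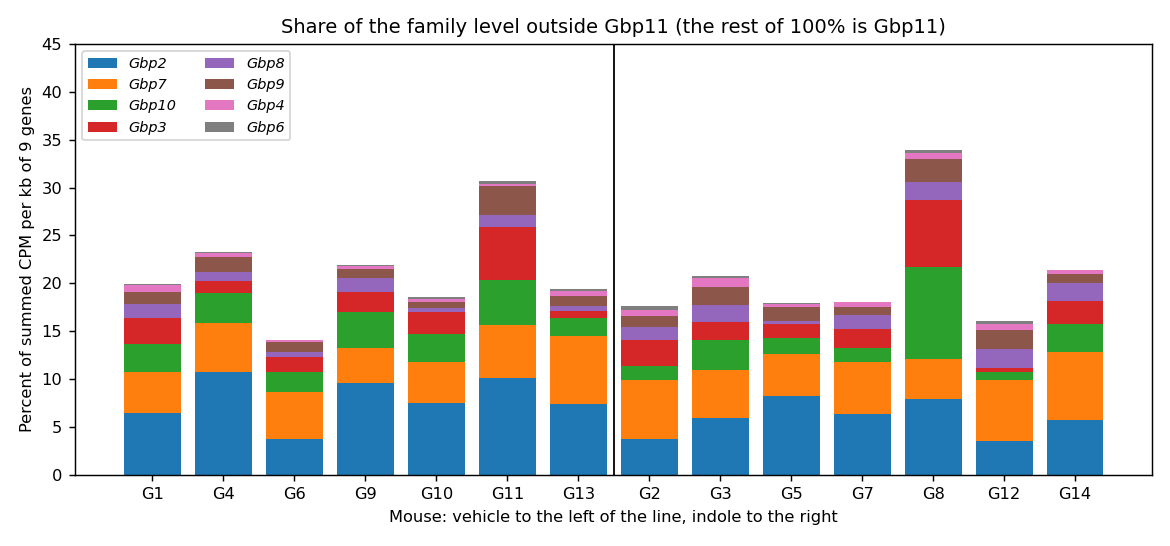
Percentage of the summed CPM per kb of the 9 genes taken by each gene other than *Gbp11* in each mouse, stacked from 0, where *Gbp11* takes what is missing to 100%. The stack is tallest in G8, where *Gbp10* takes 9.63% and *Gbp3* takes 6.95%.

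With all 14 mice, edgeR's quasi-likelihood test gave 6 of the 8 tested genes a positive log2 fold change (indole over vehicle) and 2 a negative one, against 51.3% of all genes positive. Their median log2 fold change was 0.41 and that of all genes was 0.0042. None of the 8 had an adjusted *p* below 0.05 and none an unadjusted *p* below 0.05, as against 0.0% and 3.81% of all genes. *Gbp10* had a log2 fold change of 0.75±0.92 (SE), *Gbp8* 0.74±0.62, *Gbp3* 0.73±0.91, *Gbp4* 0.53±0.51 and *Gbp9* 0.29±0.70. *Gbp7* had 0.0043±0.37, *Gbp11* -0.08±0.38 and *Gbp2* -0.36±0.60. The standard error exceeded the change for 6 of these 8 genes, the exceptions being *Gbp8* and *Gbp4*.

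Without G8 all 8 tested genes had a negative log2 fold change, against 48.7% of all genes. Their median was -0.68, beside 0.0038 for all genes. *Gbp10* had -1.31±0.43, *Gbp2* -1.24±0.39, *Gbp3* -1.05±0.54, *Gbp9* -0.76±0.45, *Gbp11* -0.60±0.18 and *Gbp7* -0.44±0.22, while *Gbp4* (-0.07±0.40) and *Gbp8* (-0.05±0.44) stayed near 0. None had an adjusted *p* below 0.05 in edgeR, as for 0.0% of all genes, and 3 (*Gbp2*, *Gbp10* and *Gbp11*) had an unadjusted *p* below 0.05, as for 4.17% of all genes. Since G8 was set aside after its levels were known, nothing is read from these counts.

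Vehicle-treated mouse G11 was high for several of the genes, so it was also left out together with G8. The median log2 fold change was then -0.47, beside 0.0064 for all genes, and 7 of 8 genes were negative, as were 48.1% of all genes. None had an adjusted *p* below 0.05 in edgeR, as for 0.0% of all genes, and 3 had an unadjusted *p* below 0.05, as for 3.85% of all genes. *Gbp3* moved from -1.05 to -0.57±0.43. *Gbp10* (-1.10±0.41), *Gbp2* (-1.12±0.39) and *Gbp11* (-0.58±0.19) moved less.

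**Figure D4:**
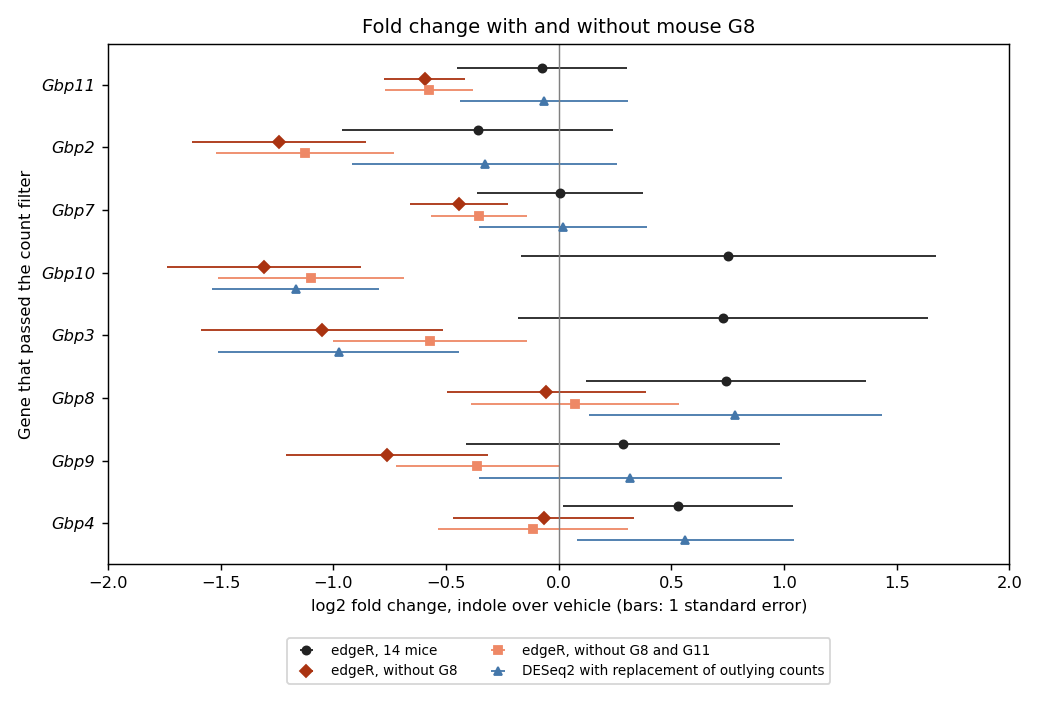
Log2 fold change of indole over vehicle with 1 standard error for the 8 genes that passed the count filter, in edgeR with 14 mice, without G8, and without G8 and G11, and in DESeq2 with its default settings. *Gbp10* and *Gbp3* lie at 0.75 and 0.73 in edgeR with 14 mice and at -1.17 and -0.98 in DESeq2.

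DESeq2, the tool the authors used, replaces a count far from the rest of its group by a trimmed mean when groups are of this size. Fitted to 22535 genes, all those with at least 1 read, it replaced the G8 count of 33 genes, *Gbp10*, *Gbp3* and the relative *Gbp2b* among them, and counts of any mouse for 41 genes. Of the same 8 genes 4 were positive and 4 negative, with a median of -0.023. *Gbp10* then had -1.17±0.37 and *Gbp3* -0.98±0.53, values from fits in which G8 was set to an imputed count. For the 6 genes without replacement DESeq2 gave values close to those of edgeR, such as 0.78±0.65 for *Gbp8* and -0.33±0.59 for *Gbp2*. None of the 8 had an adjusted *p* below 0.05, as for 0.0% of all genes, and 1 (*Gbp10*) had an unadjusted *p* below 0.05, as for 3.19% of all genes. With replacement switched off, *Gbp10* returned to 0.79±0.86 and *Gbp3* to 0.76±0.86.

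Some of these genes are hard to count apart. Of the 50-base words in the annotated transcripts of *Gbp10*, 84.1% also occurred in transcripts of other genes, mostly *Gbp6* (73.3%) and the read-through gene *Gm43302* (72.1%). For *Gbp6* the shared part was 70.7%, for *Gbp11* 19.2%, for *Gbp8* 18.1%, for *Gbp7* 12.7%, for *Gbp9* 8.05%, for *Gbp4* 7.78%, for *Gbp3* 3.75% and for *Gbp2* 2.03%. *Gm43302* covered 46.3% of the exon bases of *Gbp10* and 29.0% of those of *Gbp6* on the same strand, yet had 6 reads in all. Since reads with more than 1 match were dropped, levels of *Gbp10* and *Gbp6* may be understated and the division between them is uncertain. The same limit holds for their places in the order per kb and for their shares of the family, which used the full deposited gene length. The part of shared sequence in these levels was not tested.

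The genes varied together in mice other than G8. Over the 13 other mice, Pearson's r of log2 CPM between pairs of the 8 tested genes was 0.287 to 0.885 with a median of 0.620 (28 pairs). The highest was between *Gbp2* on chromosome 3 and *Gbp10* on chromosome 5, and the lowest between *Gbp3* and *Gbp4*. The median was 0.651 for pairs on chromosome 3, 0.573 for pairs on chromosome 5 and 0.645 for pairs across the chromosomes. These values are descriptive, since the points share libraries, depth and treatment groups.

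By Pearson's r of log2 CPM with the mean z score of the 8 genes over the 13 mice, the genes outside the family most like it were *Samhd1* (0.903), *Lsp1* (0.893), *Sp140* (0.882), *Sirpa* (0.873), *Tgtp1* (0.873), *Parp12* (0.861), *Cxcl9* (0.859), *Cxcl10* (0.855), *H2-Eb1* (0.838) and *Pitrm1* (0.837). *Cxcl9* and *Cxcl10* encode chemokines that interferon gamma induces, *Tgtp1* encodes an immunity-related GTPase and *H2-Eb1* a class II histocompatibility chain. *Tgtp1* had 45.1 CPM in G8 against a median of 0.431 CPM among the other 6 indole-treated mice, and *Cxcl9* 70.5 against 5.11 CPM. *Pitrm1*, which encodes a mitochondrial peptidase, had an r of -0.093 when G8 was included and so did not share the G8 level.

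Upstream of the family, transcripts of the interferons were at or near the floor. Of 10 listed ligands and inducers, 6 (*Ifnb1*, *Ifna1*, *Ifna2*, *Ifna4*, *Ifnl2* and *Ifnl3*) had no read in any mouse and *Ifng* had 1 read in all, in vehicle-treated mouse G6. Only *Il18*, an inducer of interferon gamma, passed the filter. It had 12.9 CPM in G8 and a median of 7.97 CPM among the other 6 indole-treated mice and 8.07 CPM in vehicle-treated mice. *Tnf* and *Il12b*, the next in level, had 14 and 5 reads in all.

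All 7 receptors and kinases passed the filter. G8 was the highest mouse for 1 of these, against 9.18% of all genes tested. Their summed level in G8 (198 CPM) lay within the range of vehicle-treated mice (177–214 CPM). *Jak1* had 87.7 CPM in G8 and a median of 77.0 CPM in vehicle-treated mice, *Ifnar2* 47.4 and 40.4 CPM, and *Ifnar1* 16.4 and 18.9 CPM. With 14 mice 1 gene passed an unadjusted *p* of 0.05, which 3.81% of all genes passed. It was lower with indole (*Ifnar1*, log2 fold change -0.28±0.13).

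For the transcription factors, G8 was the highest mouse for 6 of 10, against 9.18% of all genes tested. *Irf7* had 110 CPM in G8, 74.2 CPM in G11 and a median of 10.7 CPM among the other 6 indole-treated mice, so that both mice stood above the vehicle median of 13.1 CPM. *Irf2* (56.4 CPM in G8, vehicle median 58.8) and *Stat2* (43.2 and 37.0 CPM) did not stand apart in G8. *Irf1*, named after its values were seen because its product acts on this family, had 32.8 CPM in G8 and a median of 18.8 CPM among the other 6 indole-treated mice, but G8 lay within the vehicle range of 19.7 to 33.5 CPM and below G1. Among the 8 factors tested 1 passed an unadjusted *p* of 0.05, which 3.81% of all genes passed. It was lower with indole (*Irf2*, -0.21±0.10). Without G8, 2 were lower at that level (*Irf2* and *Irf9*), which 4.17% of all genes passed, and all 8 log2 fold changes were negative, as were 48.7% of those of all genes.

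Of 5 feedback inhibitors that passed the filter, 1 was lower at an unadjusted *p* below 0.05 (*Socs3*, -1.25±0.41), which 3.81% of all genes passed. None had an adjusted *p* below 0.05, as for 0.0% of all genes. G8 was the highest mouse for 1 of the 6 listed, against 9.18% of all genes tested. *Ptpn6* had 26.0 CPM in G8 and a vehicle median of 21.3 CPM, *Pias1* 13.5 and 13.2 CPM, and *Ptpn2* 8.95 and 9.23 CPM. *Usp18*, which encodes a negative regulator of type I interferon signalling and was named after its values were seen, had 17.0 CPM in G8, 18.1 CPM in G11 and a median of 2.37 CPM among the other 6 indole-treated mice. Without G8, *Socs3* (-1.21±0.45) and *Usp18* (-1.12±0.49) were lower at an unadjusted *p* below 0.05, which 4.17% of all genes passed. G8 was left out with its level known, so nothing is read from this.

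The immunity-related GTPases, which work with the guanylate-binding proteins on pathogen vacuoles, showed the same high mouse. G8 was the highest for all 7 listed, against 9.18% of all genes tested. The gene lists were chosen with G8 known to be high in interferon-induced genes. This count and those of the other lists are therefore a description, and nothing is read from them. Their summed level was 1616 CPM in G8. It was 239 to 415 CPM in vehicle-treated mice, with G11 at the top, and 195 to 258 CPM in the remaining 6 indole-treated mice. *Iigp1* had 960 CPM in G8 and a median of 133 CPM among the other 6 indole-treated mice, and *Igtp* 338 and 33.0 CPM. Of the 6 that passed the filter, none had an unadjusted *p* below 0.05 with 14 mice (median log2 fold change 0.34), which 3.81% of all genes passed. Without G8 5 were lower at that level (median -0.45), where 4.17% of all genes passed it in either direction. G8 was left out with its level known, and nothing is read from that count.

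**Figure D5:**
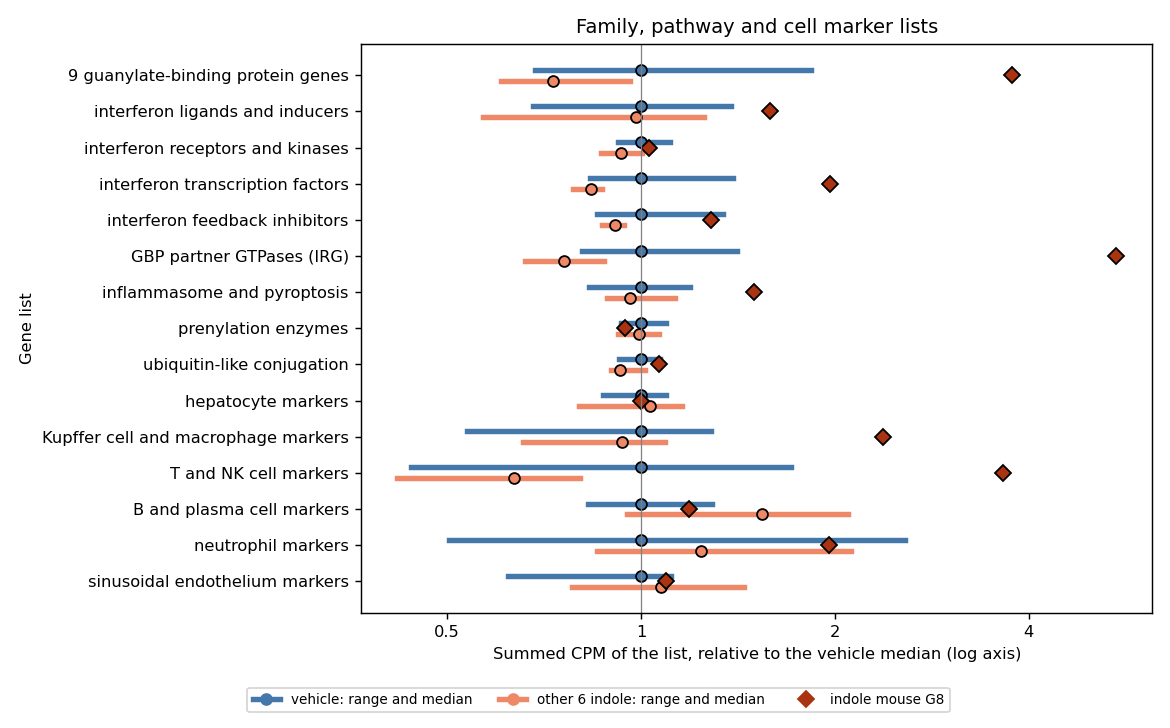
Summed CPM of the 9 genes and of each gene list, divided by the median of vehicle-treated mice (log axis), with range and median for vehicle-treated mice (blue) and for 6 indole-treated mice (orange) and with G8 as a red diamond. G8 lies above both ranges for the 9 genes, at 373 CPM against a vehicle median of 99.0 CPM, and for the GTPase partners. The same holds for the transcription factors, ligands and inducers, inflammasome genes, Kupffer cell and macrophage markers, and T and NK cell markers. G8 lies inside the vehicle range for the other lists, receptors and kinases among them. The ligand list is almost all *Il18*.

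Of the genes known to act with the family downstream, 3 lists were examined. Among all genes tested with 14 mice, 3.81% had an unadjusted *p* below 0.05, and G8 was the highest mouse for 9.18%. Of 11 inflammasome and pyroptosis genes, 6 passed the filter, none had an unadjusted *p* below 0.05, and G8 was the highest for 3 of the 11. *Gsdmd*, which encodes the pore-forming gasdermin D, had 40.6 CPM in G8 and 23.2 to 31.2 CPM in vehicle-treated mice, whereas *Naip2* (5.65 CPM) lay within its vehicle range of 3.05 to 6.98 CPM. G8 was the highest mouse for none of the 6 prenylation genes, whose products attach and process lipid tails, and *Icmt* (30.6 CPM) and *Fnta* (27.3 CPM) in G8 lay within their vehicle ranges. None of these 6 genes reached an unadjusted *p* of 0.05. Of 14 genes of ubiquitin-like conjugation, used by cells to direct these GTPases to vacuoles, G8 was the highest for 4, and 1 was lower with indole at an unadjusted *p* below 0.05 (*Gabarapl1*, -0.22±0.10). *Sqstm1* had 589 CPM in G8 and a vehicle range of 411 to 532 CPM. In none of these lists did a gene have an adjusted *p* below 0.05, as for 0.0% of all genes.

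Most markers of Kupffer cells and macrophages, and some of those of T and NK cells, were also highest in G8. The 15 Kupffer cell and macrophage markers, none at 0, had a sum of 580 CPM in G8. The sum was 131 to 314 CPM in the vehicle group and 160 to 265 CPM in the rest of the indole group. Of the 15, 13 were highest in G8, against 9.18% of all genes tested. *Clec4f* and *Cd5l*, both made by Kupffer cells, had 90.4 and 129 CPM in G8 against medians of 44.5 and 28.4 CPM in its group mates. For 15 markers of T and NK cells the sum was 15.3 CPM in G8, with 1.85 to 7.19 CPM in the vehicle group and 1.76 to 3.37 CPM in the rest of the indole group. Only 1 of the 15, *Cd4*, passed the filter. Of the 15, 8 were highest in G8, against 9.18% of all genes tested. *Cd3e* and *Cd8b1* had no read in G8, and *Cd4* (4.37 CPM) and *Ccl5* (1.82 CPM) were low in absolute terms. Named after their values were seen, *Gzmb* (2.89 CPM) and *Gzma* (2.35 CPM) were next to *Cd4* in G8, while *Cd3d* had 3 reads there and *Trac* 1. The sum thus rests on few reads of a few genes. The part of these cells in the family's level was not tested.

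Other cell markers, those of B and plasma cells and of neutrophils among them, did not stand apart in G8. The 10 hepatocyte markers summed to 96520 CPM in G8 against a vehicle median of 96442 CPM, with *Alb* and *Cps1* within their vehicle ranges. The 10 sinusoidal endothelium markers summed to 173 CPM (98.3–176 CPM in vehicle-treated mice), the 7 B and plasma cell markers to 5.45 CPM (3.80–5.93 CPM) and the 7 neutrophil markers, with *Ly6g* at 0 in all mice, to 1.82 CPM (0.467–2.38 CPM). G8 had the smallest total count of the 14 mice, and G11, next to it for several of the 9 genes, had 18220634 counts. The part of depth in these levels was not tested.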

How the data were processed

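Liver RNA of 14 male TALLYHO mice (7 vehicle, 7 indole) was analysed from the raw counts that the authors deposited, the number of uniquely mapped reads on each of 55487 genes, without normalisation. Per the methods, reads were aligned with HISAT2 to GRCm38 with Ensembl annotation, and the counting tool is not given in the sources used here. Groups and mouse names came from the sample labels, which give no batch or pairing. Each library is a separate mouse.

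From these counts, TMM-normalised CPM, CPM per kb of the deposited gene length and log2 CPM (prior count 2) were computed. edgeR 4.0.16 (filterByExpr, robust quasi-likelihood test) in R 4.3.3 was fitted to the 12653 genes kept by its filter, adjusted by Benjamini–Hochberg over all of these, and checked on simulated counts. The simulated counts held no outlying mouse, so that check does not cover a mouse such as G8. The edgeR SE is the log2 fold change divided by the square root of its F statistic. Alternatives were DESeq2 1.42.0, limma 3.58.1 voom with sample weights, other scalings and filters, and leaving out each mouse. Leaving out G8 and G11 together was chosen as an alternative once the data had been seen.

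The members, gene lists and tests were chosen with earlier results of these data known. The text names the 9 genes and their 2 relatives, the 3 genes of highest mean CPM in each interferon list, the 2 highest of each other list, and the 10 genes most like the family by r over 13 mice. Genes named from a count of at most 5 were added after their values were seen. Shared words and exon overlaps used GENCODE M21 transcripts, in which all 9 gene spans equal those deposited. Total counts of 15197498 to 21060376 limit precision for genes of few reads.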

Additional observations from a re-analysis of the deposited data

Results flagged for a closer look

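The gap between the highest or lowest mouse and its nearest neighbour, as a share of the range of log2 CPM within a group of 7, was compared with Dixon's 95% critical value for 7. Over 32 groups (the 9 genes, the family score and the marker sums in vehicle and indole), 9 exceeded it, and in all 9 the mouse was G8, at the top of the indole group. Chance alone passes this value in about 1 in 20 groups, but the genes were chosen with G8 known to be high, so the 9 are a description and support nothing. The share was 0.744 for *Gbp11*, 0.633 for *Gbp2*, 0.609 for *Gbp7*, 0.602 for *Gbp10*, 0.598 for *Gbp9* and 0.569 for *Gbp3*. It was 0.664 for the mean z score of the 8 tested genes, 0.608 for the Kupffer cell and macrophage markers and 0.699 for the T and NK cell markers. *Gbp4*, *Gbp6* and *Gbp8* did not exceed it in either group. These groups share the same 14 mice and the genes vary together, so the 9 are not independent.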

How the results depend on the processing

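None of the 8 tested genes had an adjusted *p* below 0.05 in any of 23 alternatives. With all 14 mice, voom with sample weights gave 2 of 8 genes higher with indole (median log2 fold change -0.24), and DESeq2 with default settings gave a median of -0.023. Without G8 and G11 together 1 gene was higher (median -0.47).

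Leaving out each mouse in turn gave 0 to 7 genes higher and medians from -0.68 to 0.58. The log2 fold change ran from -1.31 to 0.96 for *Gbp10*, -1.05 to 1.21 for *Gbp3*, -0.76 to 0.69 for *Gbp9*, -0.60 to 0.071 for *Gbp11*, -0.44 to 0.18 for *Gbp7*, -0.067 to 0.81 for *Gbp4*, -0.055 to 0.94 for *Gbp8* and -1.24 to -0.082 for *Gbp2*. The lowest value of each of these 8 genes was that without G8, and the highest medians, *Gbp3* and *Gbp9* values were those without G11. *Gbp7* and *Gbp11*, which lie near 0 with 14 mice, also turned sign without each of 4 other mice.

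DESeq2 gave *Gbp3* -0.98 and *Gbp10* -1.17, from fits in which their G8 counts were replaced. voom, which weights mice, gave *Gbp3* -0.38, *Gbp7* -0.091, *Gbp9* -0.23 and *Gbp10* -0.78, and the cause was not tested. Without G8 and G11, *Gbp3* had -0.57, *Gbp4* -0.11, *Gbp7* -0.35, *Gbp9* -0.36 and *Gbp10* -1.10. The other scalings and filters turned no sign. Depth limits *Gbp3*, *Gbp4*, *Gbp6* and *Gbp8* most, since each had under 10 reads in at least 1 mouse.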
